A study of Mus musculus with 22 samples.

Results

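The genes described here encode 8 enzymes or enzyme subunits of the citric acid cycle and the enzyme that replenishes it from pyruvate: Fh1, Cs, Idh3a, Idh3b, Ogdh, Suclg1, Sucla2, Mdh2 and Pcx. They were taken by name from a table of read counts for 52327 genes, and all 9 were in the table and among the 14064 genes with enough reads to test. RNA was sequenced from flow-sorted pancreatic β-cells of 22 male mice, 3 months old and of mixed background, with 1 library per mouse. All mice, controls included, carried the genotype GluDTR+, SstDTR htz, PpyDTR htz, alleles that place the diphtheria toxin (DT) receptor in the glucagon, somatostatin and pancreatic polypeptide cells of the islet, so that the toxin removes those cells and leaves the β-cells. Control mice were fasted (n = 5) or refed (n = 5), and so were mice given DT (n = 6 fasted, n = 6 refed). Fasted mice were taken after 8 h without food and refed mice after the same fast and 2 h with food, 1 month after the ablation. What control mice received in place of the toxin is not in the labels, and sorted β-cells do not measure how complete the removal was.

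The citric acid cycle oxidises acetyl groups in the mitochondrial matrix and hands electrons to the respiratory chain. In β-cells the ATP made from glucose in this way closes potassium channels and triggers insulin release, so the cycle is part of how these cells sense nutrients. β-cells also send a large share of pyruvate through pyruvate carboxylase (the product of Pcx), which refills oxaloacetate (anaplerosis) and feeds the export of citrate and malate to the cytosol.

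The differences called among these genes came with refeeding. Fh1, which encodes fumarase, the enzyme that hydrates fumarate to malate, was 5.003-fold higher in refed than in fasted control mice and 5.023-fold higher in refed than in fasted DT mice. Of the 9 genes, 5 rose with refeeding in control mice (Fh1, Idh3a, Mdh2, Ogdh and Cs) and 0 fell, while 3 rose in DT mice (Fh1, Idh3a and Mdh2) and 1 fell (Pcx). Between DT and control mice 0 of 9 were called in either feeding state. A gene was called where edgeR's quasi-likelihood test gave a Benjamini-Hochberg adjusted p under 0.05 over all 14064 genes.

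Refeeding changed much of the transcriptome, and the counts above stand against that background. The 9 genes were chosen with earlier results of these data known. A difference between them and all genes is therefore a description and not a test of the pathway. In control mice 23.3% of the tested genes were called, 10.9% higher and 12.3% lower, and in DT mice 24.4% were called, 10.8% higher and 13.5% lower. The median log2 fold change of the 9 genes was 0.43 in control mice and 0.07 in DT mice, beside −0.04 and −0.06 over all genes. Without refed DT mouse 13, a library described below, the DT median was 0.22 and the control median 0.45. For the 10 other genes of cycle enzymes described below, the medians with all mice were −0.03 in control and −0.06 in DT mice. DT against control called 4 genes (0.0284%) in fasted mice and 5 (0.0356%) in refed mice with edgeR. DESeq2 called 50 and 86 genes, and limma voom 4 and 1. Without refed DT mice 13 and 20, both described below, edgeR called 26 and 176. In bulk RNA from sorted cells, a change in the number of cells that express a gene and a change in RNA per cell cannot be told apart.

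Total counts ran from 16584117 to 24988880 per library. The β-cell genes Slc2a2 (151 to 841.7 CPM, counts scaled to a common library size), Pdx1 (105.1 to 195.3 CPM) and Ucn3 (249.1 to 808.7 CPM) were present in every library. The β-cell factor genes Nkx6-1 and Mafa ran from 35.85 to 250.3 CPM and from 16.96 to 427.7 CPM. 1 library stood apart: refed DT mouse 13 had 69.41% of its counts in the insulin genes against 40.26 to 51.14% in the others, and 15863 genes detected against 17447 to 19284. It had the lowest value of the 6 refed DT mice for 7 of the 9 genes and the highest for Idh3b and Mdh2, so values of the 9 genes in refed DT mice are given with and without it where a call differed. Refed DT mouse 20 had the highest summed immune marker level (284 CPM) and the highest mitochondrially encoded share (1.594%), and was left out together with mouse 13 in 1 alternative. Summed acinar (exocrine) marker levels ran from 103.3 to 11090 CPM in fasted and 1030 to 18020 CPM in refed control mice, and from 81.06 to 15780 CPM in fasted and 53.01 to 27290 CPM in refed DT mice. Of the 9 acinar markers tested 0 were called with refeeding in control or DT mice (0 at an unadjusted p under 0.05), at median log2 fold changes of 1.01 and 1.18, and 0 of the 10 listed were at 0 in all libraries. With this level as a covariate, Fh1 was 2.37 higher on the log2 scale in control mice and 2.35 in DT mice, and the genes called with refeeding stayed called. Mice numbered up to 11 were fasted and those from 12 were refed, and the labels name no batch. A batch that followed these numbers cannot be told apart from refeeding.

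**Figure D1:**
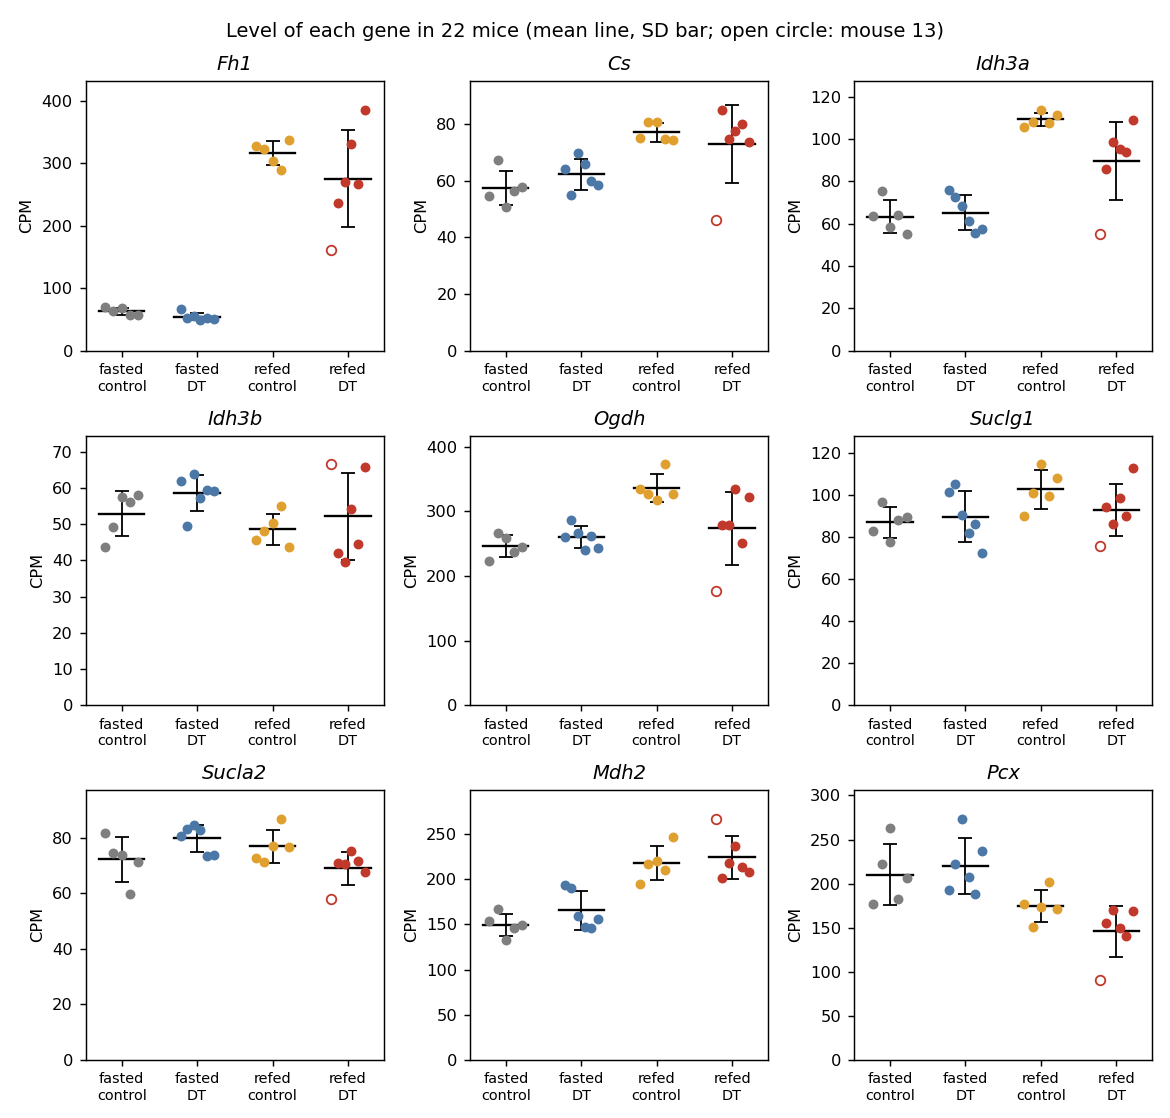
Level of each gene in CPM (vertical axis, from 0) in every mouse of the 4 groups (horizontal axis), with the mean as a line, the SD as a bar and refed DT mouse 13 as an open circle. Fh1 separates fasted mice (49.8 to 69.5 CPM) from refed mice (161 to 385 CPM), while the other genes span narrower ranges.

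Fh1 had the clearest separation. In fasted control mice 1 to 5 it stood at 69.5, 64.1, 67.9, 57.5 and 56.8 CPM, and in fasted DT mice at 49.8, 52.6 and 66.4 CPM (lowest, median and highest of 6). In refed control mice 12, 18, 19, 21 and 22 it stood at 328, 322, 304, 290 and 337 CPM, and in refed DT mice at 161, 269 and 385 CPM (lowest, median and highest of 6). Every refed mouse lay above every fasted mouse, and even refed DT mouse 13, the lowest refed value, was above the highest fasted value, that of fasted control mouse 1. Group means were 63.2 ± 5.83 CPM (SD, n = 5) fasted and 316 ± 19.01 CPM (n = 5) refed in control mice, and 54.8 ± 6.13 CPM (n = 6) fasted and 275 ± 77.4 CPM (n = 6) refed in DT mice.

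The Fh1 log2 fold change with refeeding was 2.32 ± 0.16 (SE; adjusted p = 1.87e-08 with edgeR) in control mice, a 5.003-fold rise with a 95% interval of 4.02 to 6.22. In DT mice it was 2.33 ± 0.15 (adjusted p = 2.94e-09), a 5.023-fold rise with an interval of 4.11 to 6.13. Fh1 had the smallest p of the 14064 genes in both edgeR comparisons, while by the size of its change it ranked 241 in control mice and 193 in DT mice. The difference between these rises was 0.0059 ± 0.21 on the log2 scale, with a 95% interval of −0.40 to 0.41 (adjusted p = 0.998). Leaving out any 1 library kept the rise between 2.29 and 2.36 in control mice and between 2.21 and 2.49 in DT mice. The highest DT value was the one without refed DT mouse 13.

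Fh1 lies at chr1:175600374-175625635 on the minus strand (GRCm38, GENCODE M21). On the other strand it overlaps Kmo without sharing exon bases, and Kmo reached at most 3 counts in a library. Of the other genes within 200 kb, Rgs7 stood at 18.9 CPM in fasted and 19.2 CPM in refed control mice, Opn3 at 1.92 and 2.55 CPM, and Chml at 1.23 and 2.74 CPM (1.09 and 1.32 CPM in DT mice). For all 9 genes 0 annotated transcripts of another gene matched at 95% identity or more over at least 100 bases. Shorter matches and copies outside the annotation were not searched.

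Promoter sequence is shown for Fh1, which rose in both control and DT mice, and for Ogdh, called in control mice. It is also shown for Pcx, which fell in DT mice. Each window runs from 150 bases before to 11 bases after a RefSeq start site in GRCm38.p6, 5′ to 3′ along the gene. Ogdh has 6 promoters in RefSeq and Pcx has 2, and the one with the lowest coordinate is shown. Capitals mark the cAMP response element letters TGACGTCA and its shorter form TGACG, on either strand, which CREB-family factors such as CREM can bind.
Fh1, chr1:175625625-175625785: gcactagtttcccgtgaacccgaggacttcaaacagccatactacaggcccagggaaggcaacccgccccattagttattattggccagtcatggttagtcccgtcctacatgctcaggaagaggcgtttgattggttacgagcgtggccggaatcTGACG
Ogdh, chr11:6291447-6291607: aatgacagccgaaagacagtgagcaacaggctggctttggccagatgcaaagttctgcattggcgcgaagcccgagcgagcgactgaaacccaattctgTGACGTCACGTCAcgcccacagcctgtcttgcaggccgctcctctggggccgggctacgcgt
Pcx, chr19:4510322-4510482: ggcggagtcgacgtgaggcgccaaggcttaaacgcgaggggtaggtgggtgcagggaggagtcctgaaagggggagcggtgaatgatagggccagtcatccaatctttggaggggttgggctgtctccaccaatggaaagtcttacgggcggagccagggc
The Fh1 window holds TGACG at position 7 after the start site and no full TGACGTCA, the Ogdh window holds TGACGTCA at position −51 followed directly by the short form on the other strand, and the Pcx window holds neither. The Ogdh TGACGTCA lies at position −60 or −113 from the next start sites, and the remaining Ogdh windows do not hold it. The cAMP response element was added as a motif after the values had been seen. Over the 300-base promoters in the RefSeq table (8 of the 9 genes matched, with 14 promoters), TGACGTCA was in a promoter of 2 genes (Mdh2 and Ogdh) and in 1.79% of all 32851 promoters. TGACG was in a promoter of 6 genes and in 20.8% of all promoters. Of these genes, Fh1, Mdh2 and Ogdh were called higher with refeeding in control mice. Idh3b, Suclg1 and Sucla2 were not called with refeeding in control or DT mice. TGACG was absent from the promoters of Cs, which rose in control mice, and of Pcx, and Idh3a had no promoter in the RefSeq table. The short form was thus present in called and uncalled genes alike.

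Sites of factors known for mitochondrial genes were searched in the same promoters on both strands. The estrogen-related receptor site TCAAGGTCA was in 0 of the 14 promoters and in 0.423% of all promoters. Its core AAGGTCA was in 1 of the 14 (Ogdh) and in 4.72% of all promoters. The NRF1 site GCGCATGCG was in 2 of the 14, both of Ogdh (1.75% of all), as was its shorter form GCGCATG (3.91%). These 2 windows overlap and hold the same single site. The ETS and GABP site CCGGAAG was in 1 of the 14 (Idh3b, 8.86% of all). The E-box CACGTG was in 4 of the 14, from Ogdh and Pcx (7.15% of all). The same 2 overlapping Ogdh windows share 1 of these E-boxes. Each match is a description of letters in a window and not a measured binding site.

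Citrate synthase, the product of Cs, joins acetyl-CoA to oxaloacetate and opens the cycle. Cs stood at 54.7, 67.2, 50.8, 56.4 and 57.6 CPM in fasted control mice and at 74.9, 80.7, 80.5, 74.7 and 74.1 CPM in refed control mice, without overlap. It rose by 0.43 ± 0.12 on the log2 scale (adjusted p = 0.0135 with edgeR). In DT mice Cs stood at 54.9, 62.0 and 69.7 CPM fasted and at 46.2, 76.2 and 84.9 CPM refed (lowest, median and highest of 6), and the groups overlapped through refed DT mouse 13, which held the lowest value. The difference was 0.23 ± 0.11 (adjusted p = 0.138) with all mice and 0.38 ± 0.08 (adjusted p = 0.00112) without mouse 13.

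Idh3a and Idh3b encode the α and β subunits of the NAD-dependent isocitrate dehydrogenase, a calcium- and ADP-sensitive step of the cycle; the α subunit carries the catalytic site. Idh3a stood at 63.5, 75.4, 58.4, 64.2 and 55.3 CPM in fasted control mice and at 106, 108, 114, 108 and 111 CPM in refed control mice. Every refed control mouse lay above every fasted one. Idh3a rose by 0.79 ± 0.14 on the log2 scale in control mice (adjusted p = 0.000259 with edgeR), a 1.72-fold change. In DT mice it stood at 55.6, 64.8 and 76.1 CPM fasted and at 55.3, 94.7 and 109 CPM refed (lowest, median and highest), with overlap through mouse 13. It rose there by 0.46 ± 0.12 (adjusted p = 0.00898), and by 0.61 without mouse 13. With the DT mice fitted alone the rise was also 0.46, at an adjusted p of 0.0502.

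Idh3b was not called. Its control mice ranged from 43.8 to 58.0 CPM fasted and from 43.8 to 55.0 CPM refed, its DT mice from 49.6 to 64.0 CPM fasted and from 39.5 to 66.5 CPM refed, and all groups overlapped. Its log2 fold changes with refeeding were −0.12 ± 0.13 in control mice (adjusted p = 0.567) and −0.17 ± 0.12 in DT mice (adjusted p = 0.340). Without refed DT mice 13 and 20 together the DT value was −0.30 and called (adjusted p = 0.0318). The ratio of Idh3a to Idh3b per kilobase of exon was 0.823 ± 0.175 in fasted and 1.53 ± 0.14 in refed control mice, with ranges of 0.644 to 1.03 and 1.32 to 1.71 that did not overlap. In DT mice it was 0.757 ± 0.132 and 1.22 ± 0.38, and mouse 13 (0.561) placed the refed range over the fasted one. The ratio of Idh3g, which encodes the remaining γ subunit, to Idh3b was 2.36 fasted and 2.48 refed in control mice, and 2.37 fasted and 2.66 refed in DT mice. The Idh3b gene shares 5 exon bases with Nop56 on the other strand.

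Ogdh encodes the first component of the 2-oxoglutarate dehydrogenase complex, which makes succinyl-CoA and is activated by calcium. Ogdh stood at 222, 267, 258, 238 and 245 CPM in fasted control mice and at 334, 327, 318, 372 and 327 CPM in refed control mice, without overlap. It rose by 0.45 ± 0.12 on the log2 scale (adjusted p = 0.00963 with edgeR). In DT mice it stood at 240, 261 and 286 CPM fasted and at 177, 278 and 335 CPM refed (lowest, median and highest), and the groups overlapped. The difference was 0.07 ± 0.11 (adjusted p = 0.669) with all DT mice and 0.22 (adjusted p = 0.0502) without mouse 13.

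Suclg1 encodes the shared α subunit of succinyl-CoA synthetase, and Sucla2 the β subunit of its ADP-forming version. Suclg1 ran from 77.4 to 96.8 CPM in fasted and 89.9 to 115 CPM in refed control mice, and from 72.6 to 105 CPM in fasted and 75.9 to 113 CPM in refed DT mice. Its log2 fold changes with refeeding were 0.24 ± 0.11 (adjusted p = 0.127) in control mice and 0.05 ± 0.10 (adjusted p = 0.761) in DT mice. The control value was called in 2 alternatives, at 0.27 each: with the control mice fitted alone (adjusted p = 0.0338), and without refed DT mice 13 and 20 (adjusted p = 0.0448).

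Sucla2 ran from 59.6 to 81.5 CPM in fasted and 71.2 to 86.7 CPM in refed control mice, and from 73.5 to 84.4 CPM in fasted and 57.9 to 75.1 CPM in refed DT mice, with overlap in both. Its log2 fold changes were 0.09 ± 0.09 (adjusted p = 0.511) and −0.21 ± 0.08 (adjusted p = 0.0650). The DT value kept its size, −0.21, and was called (adjusted p = 0.0476) without fasted control mouse 4, while it was −0.12 (adjusted p = 0.288) without refed DT mouse 13 and −0.07 (adjusted p = 0.529) without mice 13 and 20. Sucla2 stood above Suclg2, the β subunit of the GTP-forming version, by a ratio per kilobase of exon of 3.13 ± 0.51 fasted and 3.79 ± 0.27 refed in control mice, and of 3.47 ± 0.48 fasted and 3.95 ± 0.64 refed in DT mice.

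Mdh2 encodes mitochondrial malate dehydrogenase, which follows fumarase and returns malate to oxaloacetate. It stood at 153, 167, 132, 147 and 150 CPM in fasted control mice and at 195, 217, 221, 211 and 247 CPM in refed control mice. In DT mice it stood at 146, 158 and 194 CPM fasted and at 202, 216 and 267 CPM refed (lowest, median and highest). Neither pair of groups overlapped. Mdh2 rose by 0.54 ± 0.10 on the log2 scale in control mice (adjusted p = 0.000540 with edgeR) and by 0.44 ± 0.09 in DT mice (adjusted p = 0.00158), which is 1.46-fold and 1.35-fold.

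Pcx, the anaplerotic gene, was the 1 of the 9 that fell. It stood at 177, 222, 263, 182 and 206 CPM in fasted control mice and at 176, 150, 173, 202 and 171 CPM in refed control mice, and these groups overlapped. The difference was −0.27 ± 0.15 on the log2 scale (adjusted p = 0.209 with edgeR). In DT mice Pcx stood at 188, 215 and 273 CPM fasted and at 90.9, 152 and 170 CPM refed (lowest, median and highest), without overlap. Pcx fell there by 0.59 ± 0.14 (adjusted p = 0.00282), to 0.662 of the fasted level, and by 0.44 (adjusted p = 0.00570) without mouse 13. Whether control and DT mice differed in this change was tested by the interaction, which was −0.33 ± 0.20 (adjusted p = 0.787), and −0.20 ± 0.16 (adjusted p = 0.752) without mouse 13.

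The ranges of refed and fasted mice did not overlap for 5 of the 9 genes in control mice, beside 21.5% of all tested genes, and for 3 in DT mice (Fh1, Mdh2 and Pcx), beside 10.1%. Averaged over control and DT mice, refeeding called 6 of the 9 genes, 5 higher and 1 lower, beside 38.9% of all genes (17.2% higher and 21.7% lower). The average log2 fold changes were 2.33 for Fh1, 0.62 for Idh3a, 0.49 for Mdh2, 0.33 for Cs, 0.26 for Ogdh and −0.43 for Pcx, and 0.15, −0.06 and −0.15 for the uncalled Suclg1, Sucla2 and Idh3b. Without refed DT mouse 13 the Suclg1 average was 0.21 and called (adjusted p = 0.0341).

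**Figure D2:**
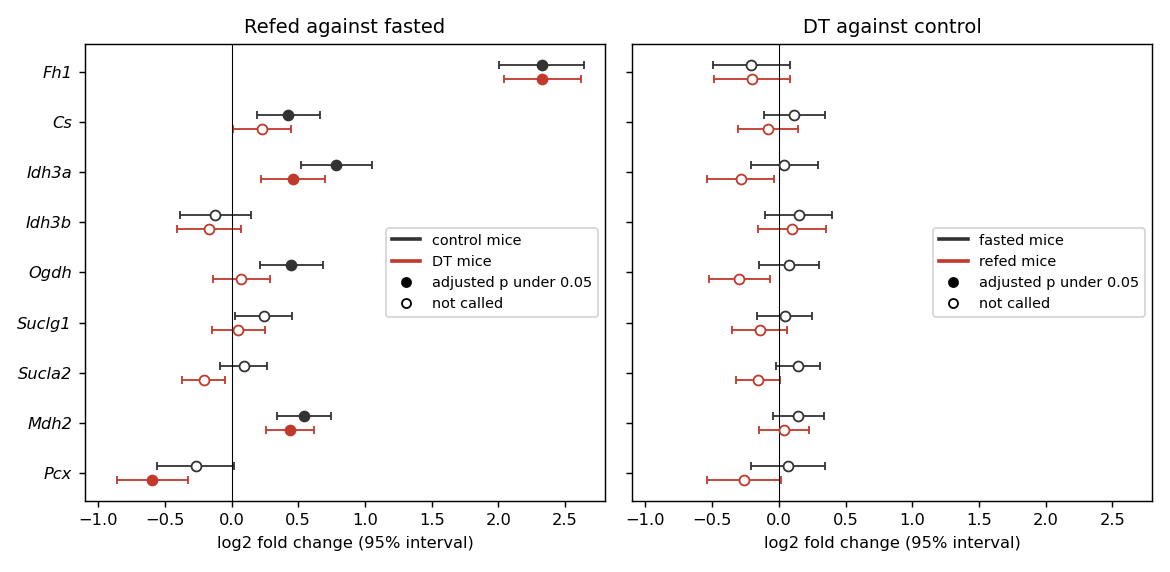
Log2 fold change of each gene (horizontal axis, with 95% intervals) for refed against fasted mice on the left and DT against control mice on the right, with black and red lines for the mice named in each legend. Filled points are called and open points are not: 5 and 4 genes are filled on the left and 0 on the right.

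The comparison of DT with control mice asks whether β-cells change these genes when the other islet cells have been removed. Of the 9 genes 0 were called by edgeR in fasted mice and 0 in refed mice, as with DESeq2 and limma voom, and 0 had ranges that did not overlap (1.88% and 0.988% of all genes). At an unadjusted p under 0.05 there were 0 of 9 in fasted mice (8.33% of all genes) and 2 of 9 in refed mice (10% of all genes). In fasted mice the log2 differences ran from −0.21 ± 0.15 for Fh1 (adjusted p = 0.773) to 0.15 ± 0.13 for Idh3b. Their 95% intervals lay between −0.49 and 0.40.

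In refed mice the pair at an unadjusted p under 0.05 was Ogdh, at −0.29 ± 0.12 (adjusted p = 0.375), and Idh3a, at −0.28 ± 0.13 (adjusted p = 0.459). Pcx was at −0.26 ± 0.14 and Fh1 at −0.20 ± 0.15. Without refed DT mouse 13 these values were −0.19 for Ogdh, −0.17 for Idh3a, −0.15 for Pcx and −0.08 for Fh1, each nearer to 0. Averaged over fasted and refed mice, DT called 0 of the 9 genes, beside 0.206% of all genes, with 0 of 9 and 11.9% at an unadjusted p under 0.05.

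The interaction, which tests whether refeeding acted differently in DT and control mice, called 0 of the 9 genes, beside 0.00711% of all genes. At an unadjusted p under 0.05 there were 2 of 9 (7.14% of all genes): Ogdh, at −0.37 ± 0.16 (adjusted p = 0.675), and Sucla2, at −0.30 ± 0.12 (adjusted p = 0.614). The interaction value was below 0 for 8 of the 9 genes, Fh1 being the exception, while 48% of all genes were above 0. The median was −0.20 beside −0.02 over all genes. All 9 values come from the same mice, so they are not independent of each other. Without refed DT mouse 13 the interaction value was again below 0 for these 8 genes, with a median of −0.14 beside 0.003 over all genes. It was then −0.25 for Ogdh, −0.23 for Sucla2, −0.20 for Idh3a (−0.33 with mouse 13), −0.07 for Cs (−0.20 with mouse 13) and 0.14 for Fh1. The rises of Cs and Ogdh called in control mice and the fall of Pcx called in DT mice were thus not shown to differ between control and DT mice.

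**Figure D3:**
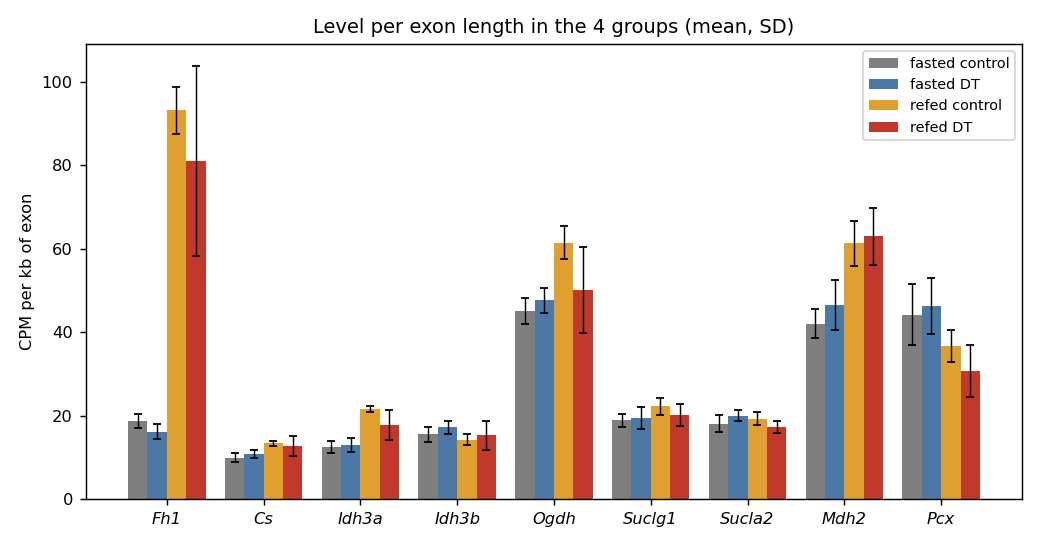
Mean level of each gene in CPM per kilobase of exon (vertical axis, bars from 0, SD as error bars) in the 4 groups. Fh1 stands at 18.6 fasted and 93.2 refed in control mice and at 16.2 fasted and 81.1 refed in DT mice, above the means of the other 8 genes in the refed groups.

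Levels of different genes were compared per kilobase of exon. The length joined all annotated exons of a gene and was not that of the transcripts expressed. Ranks and ratios between genes therefore depend on the annotation as well as on the spread of mice. In fasted control mice Ogdh (45.1 ± 3.19 CPM per kb), Pcx (44.2 ± 7.33) and Mdh2 (42.0 ± 3.47) were highest and differed by less than their spread. Suclg1 (18.8 ± 1.58), Fh1 (18.6 ± 1.72), Sucla2 (18.1 ± 2.00) and Idh3b (15.5 ± 1.80) followed within overlapping ranges, with Idh3a (12.5 ± 1.51) and Cs (9.92 ± 1.06) lowest. In refed control mice Fh1 (93.2 ± 5.60) was highest and its lowest mouse (85.4) was above the highest mouse for Mdh2 (69.5) and Ogdh (68.3).

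Fh1 made up 8.30 ± 0.80% of the summed level per kilobase of the 9 genes in fasted and 27.2 ± 1.79% in refed control mice, and 6.82 ± 0.56% in fasted and 25.9 ± 4.04% in refed DT mice. Without Fh1 the summed level of the other 8 was 206 ± 11.9 CPM per kb fasted and 250 ± 10.4 refed in control mice, and 221 ± 14.5 fasted and 227 ± 19.6 refed in DT mice. In fasted DT mice the Fh1 mean ranked 7 of the 9 genes, and in refed DT mice it was the highest, although in mouse 13 Fh1 (47.4 CPM per kb) was below Mdh2 (75.0).

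Other genes of the pathway were read from 7 lists with 65 genes, of which 64 were tested. In control mice 8 were higher with refeeding and 12 lower, 31.2% in all, and in DT mice 9 were higher and 14 lower, 35.9%, beside the 23.3% and 24.4% of all genes. Their median log2 fold changes with refeeding were 0.03 in control mice and −0.01 in DT mice. The interaction called 0 of 64, with 4 at an unadjusted p under 0.05 in edgeR, beside 7.14% of all genes. A change named below for control or DT mice alone was thus not shown to differ between them. Between DT and control mice 0 of 64 were called in fasted or refed mice by edgeR, DESeq2 or limma voom. At an unadjusted p under 0.05 in edgeR there were 6 of 64 in fasted and 4 of 64 in refed mice, beside 8.33% and 10% of all genes. Among these were Mmab in fasted mice, a cobalamin enzyme gene (0.50 ± 0.16, adjusted p = 0.391 with edgeR), and Slc25a12 in refed mice, an aspartate-glutamate carrier gene (−0.27 ± 0.08, adjusted p = 0.217).

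Of the 10 other genes of cycle enzymes, 1 rose and 1 fell in control mice, and 1 rose and 2 fell in DT mice. Dld, the lipoamide dehydrogenase shared by the 2-oxoglutarate and pyruvate dehydrogenase complexes, rose by 0.71 ± 0.11 in control mice (adjusted p = 8.34e-05 with edgeR) and by 0.45 ± 0.10 in DT mice (adjusted p = 0.00222). Idh2, the NADP-dependent mitochondrial isocitrate dehydrogenase, fell by 0.74 ± 0.15 (adjusted p = 0.00118) and by 0.88 ± 0.14 (adjusted p = 9.42e-05). Suclg2 fell by 0.38 ± 0.13 in DT mice (adjusted p = 0.0432). The subunits of succinate dehydrogenase, the step before fumarase, were not called in either comparison, at values from −0.25 for Sdhd to 0.41 for Sdhc in control mice.

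Pyruvate entry had 3 higher and 3 lower of 13 genes in control mice, and 2 higher and 4 lower in DT mice. Pdk2 and Pdk1 encode kinases that switch pyruvate dehydrogenase off. Pdk2 fell by 1.58 ± 0.23 in control mice (adjusted p = 5.36e-05 with edgeR) and by 1.42 ± 0.21 in DT mice, from 61.4 to 20.6 CPM and from 55.0 to 20.7 CPM. Pdk1 fell by 0.99 ± 0.26 and by 1.07 ± 0.24. Pdpr, which encodes the regulatory subunit of the phosphatase that switches the complex back on, fell by 1.08 ± 0.26 and by 0.95 ± 0.24, and Pdk3, a further kinase gene, rose by 0.41 ± 0.12 and by 0.37 ± 0.11. Mpc1, a subunit of the mitochondrial pyruvate carrier, rose by 0.64 ± 0.15 and Pdhb by 0.36 ± 0.08 in control mice, and the phosphatase gene Pdp2 rose by 0.56 ± 0.18 in DT mice. Pdk4 was called lower in DT mice (adjusted p = 0.0277) at mean levels of 0.53 CPM fasted and 0.03 CPM refed, where the median refed mouse was at 0, so no fold is given.

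Among malic enzymes, citrate export and related steps, 2 of 11 genes rose and 3 fell in control mice, and 1 rose and 2 fell in DT mice. Mdh1, the cytosolic malate dehydrogenase, rose by 0.87 ± 0.13 in control mice (adjusted p = 4.65e-05 with edgeR) and by 0.61 ± 0.11 in DT mice. Acly, which splits exported citrate to cytosolic acetyl-CoA, rose by 0.90 ± 0.21 in control mice (adjusted p = 0.00391). Pck2, the mitochondrial phosphoenolpyruvate carboxykinase that draws on oxaloacetate, fell by 1.36 ± 0.17 and by 0.93 ± 0.15. Me3, a mitochondrial malic enzyme, fell by 1.36 ± 0.32 and by 1.72 ± 0.30, from 4.51 to 1.75 CPM and from 4.88 to 1.47 CPM. Slc25a10, a dicarboxylate carrier, fell by 0.68 ± 0.20 in control mice.

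Exchange of glutamate and aspartate had 2 of 10 genes higher and 3 lower in control mice, and 3 higher and 2 lower in DT mice. Slc25a22, a mitochondrial glutamate carrier, rose by 0.93 ± 0.13 and by 0.68 ± 0.12, and Got1, the cytosolic aspartate aminotransferase, by 0.54 ± 0.14 and by 0.59 ± 0.13. The aspartate-glutamate carriers Slc25a12 and Slc25a13 fell by 0.40 ± 0.08 and 0.95 ± 0.22 in control mice and by 0.50 ± 0.07 and 0.68 ± 0.20 in DT mice. Gpt2, a mitochondrial alanine aminotransferase, fell by 0.80 ± 0.29 in control mice, and the glutaminase gene Gls2 rose by 1.61 ± 0.50 in DT mice, from 1.26 to 3.80 CPM.

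Of 6 propionyl-CoA genes 0 were called in control mice (0 at an unadjusted p under 0.05), where Mmaa had the smallest p, at 0.29 ± 0.15 (adjusted p = 0.179). In DT mice 1 was higher (Mmaa, 0.41 ± 0.14) and 2 were lower (Pcca, −0.50 ± 0.14, and Pccb, −0.40 ± 0.12, the subunits of propionyl-CoA carboxylase). Of 8 assembly and lipoylation factors, Lias, which makes the lipoyl group that 2-oxoglutarate and pyruvate dehydrogenase need, fell by 0.68 ± 0.13 and by 0.41 ± 0.12. Sdhaf2, a succinate dehydrogenase assembly factor, rose by 0.58 ± 0.15 in DT mice.

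**Figure D4:**
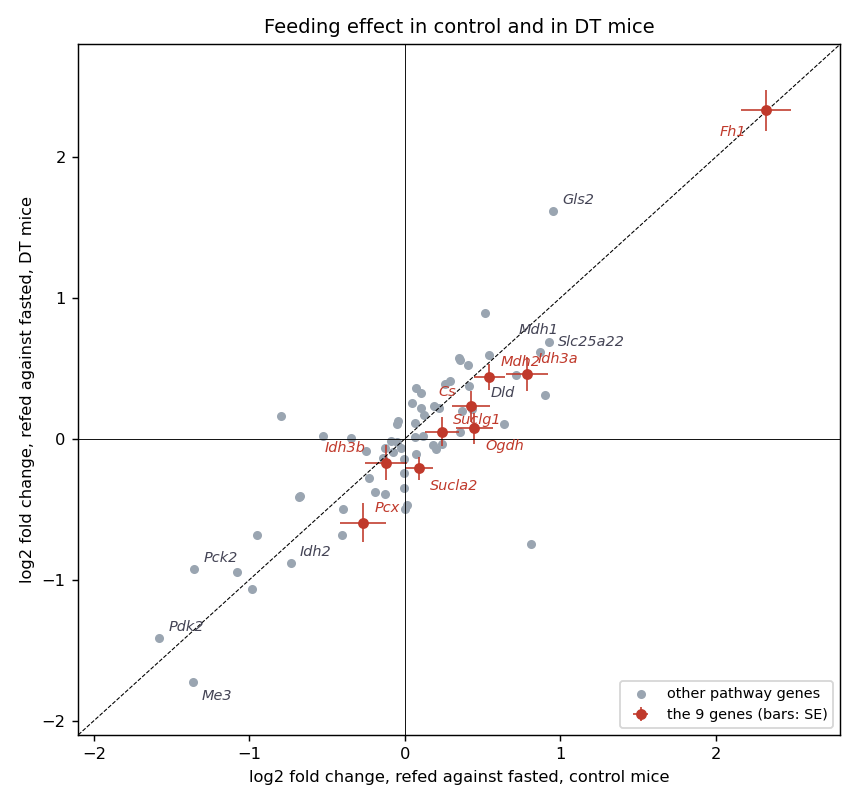
Log2 fold change for refed against fasted mice in control mice (horizontal axis) and DT mice (vertical axis), in red with SE bars for the 9 genes and in grey for the other pathway genes tested except Pdk4, whose refed levels are near 0. The dashed line marks equal values: Fh1 lies on it, and the other 8 genes lie below it.

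The 9 genes followed each other unevenly across the 22 mice. These include refed DT mouse 13, lowest of its group for 7 of the 9 genes and highest for Idh3b and Mdh2. The correlations were not recomputed without it. As a description over all mice, which share the feeding groups and library depth, the Pearson correlation of each gene with the mean of the 9 standardised log2 CPM values, itself included, was 0.92 for Ogdh, 0.89 for Idh3a, 0.83 for Suclg1, 0.81 for Cs, 0.68 for Fh1, 0.53 for Mdh2, 0.44 for Sucla2, 0.05 for Pcx and −0.21 for Idh3b. Among 5741 genes outside the lists, those nearest to that mean were Copg1 (r = 0.96), Uso1 (0.95), Copb2 (0.93), Vcp (0.93) and Copa (0.93). Those nearest to Fh1 alone, a search of 5807 genes added after its values had been seen, were Tagln2 (0.97), Syt4 (0.97), Ndufc2 (0.96), Crem (0.96) and Cltb (0.96). Tagln2, the nearest, went from 75.0 to 191 CPM in control mice, a log2 fold change of 1.35, and rose by 1.47 in DT mice. Crem went from 12.9 to 49.9 CPM in control mice and from 9.13 to 52.7 CPM in DT mice, a log2 fold change of 1.95 and 2.53. A link between Crem and Fh1 was not tested.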

How the data were processed

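RNA of sorted β-cells was sequenced as single-end reads after SMARTer cDNA amplification and Nextera XT library preparation, per the labels' protocols. The deposited values are raw read counts per gene symbol; per the submitters' processing notes STAR 2.7.2b, HTSeq 0.9.1 and DESeq2 1.28.1 were used with GRCm38.p6, and the strand setting is not given in the sources used here, so overlapping antisense reads cannot be told apart. Groups came from the labels. All 22 libraries were fitted together in edgeR 4.0.16 (R 4.3.3; TMM, filterByExpr by group, robust quasi-likelihood), a coefficient per group, with Benjamini-Hochberg adjustment over 14064 genes and a threshold of 0.05. SEs came from the F statistic; CPM used TMM-scaled library sizes; log2 CPM used a prior count of 2. The fit was tested on simulated data. Positions and exon lengths are from GENCODE M21, promoters from RefSeq. Alternatives were DESeq2 1.42.0, limma 3.58.1 voom, other scalings and filters, covariates, the compared groups alone, and libraries left out. Pathway genes are named by up to 4 called genes per direction and list, by smallest p, or the 1 with the smallest p. The result of 1 list is not reported here. The 9 genes and the lists were chosen with earlier results of these data known. No label says whether mice shared a litter or day.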

Additional observations from a re-analysis of the deposited data

Results flagged for a closer look

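Over 36 sets of values (9 genes in 4 groups of 5 or 6 mice) a gap between 1 mouse and the rest was checked with Dixon's criterion, which chance meets in about 1 set in 20, and 2 sets met it, both through refed DT mouse 13. For Cs this mouse had 46.16 CPM, below 73.59 to 84.88 CPM in the other refed DT mice, a gap of 0.708 of the range against a critical value of 0.625. For Pcx it had 90.85 CPM, below 140.8 to 169.9 CPM, a gap of 0.632. The insulin share of this library was the highest of the 22, and its part in these values was not tested.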

How the results depend on the processing

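The number of the 9 genes called was recomputed with each of the 22 libraries left out and in 9 other settings. It was 0 throughout for DT against control in fasted and in refed mice, for the average DT effect and for the interaction. Refeeding in control mice called 5 (5 with any library left out, 5 to 6 otherwise), refeeding in DT mice 4 (4 to 5, and 3 to 6 otherwise), and the average 6 (6 to 7, and 6 to 8 otherwise). Of 1926 recomputed gene values 1915 kept their side of the threshold, 1 lost a call, 10 gained one, and 0 called values changed sign, while 41 of 1467 uncalled values did. Changed calls not given above were Sucla2 with the mitochondrially encoded share as a covariate, an alternative chosen after seeing the data (refeeding in DT mice, −0.23, adjusted p = 0.0391), and, without refed DT mice 13 and 20, Cs in DT mice (0.43, adjusted p = 0.000615) and the averages of Idh3b (−0.20, adjusted p = 0.0324) and Suclg1 (0.19, adjusted p = 0.0355). The cause of these changes was not tested. No paired analysis was possible because every mouse number occurs once. The lowest count of the 9 genes in any library was 505.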
